A study of Mus musculus with 3 samples.

Results

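The genes described here are 35 of the 31053 in the deposited matrix: the mouse genes for moving new proteins into the endoplasmic reticulum (ER), for processing and folding them there, and the transcription factor gene Xbp1. They were taken by symbol from a written list, which was drawn up with earlier results of these data known, and all 35 had a row. They fall into 8 role groups: the translocon, the signal recognition particle, the translocon-associated protein complex, the signal peptidase, the oligosaccharyltransferase, the chaperones with their co-chaperones, the lectin chaperones with the disulfide isomerases, and Xbp1. Their levels were compared across cell classes of the liver, with plasmacytoid dendritic cells first.

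Proteins bound for the cell surface or for secretion are recognised by the signal recognition particle as they leave the ribosome, and are threaded through the Sec61 channel into the ER. There the signal peptidase removes the signal sequence, the oligosaccharyltransferase attaches sugar chains, and chaperones and disulfide isomerases fold the product. The unfolded protein response, of which Xbp1 is one arm, adjusts this machinery to the load. Plasmacytoid dendritic cells are immune cells with a plasma-cell-like shape, known for secreting large amounts of type I interferon after sensing nucleic acids.

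The data are droplet 3′ transcriptomes of flow-sorted non-parenchymal liver cells of Ai14 (LSL-Tomato) mice, which carry a red fluorescent reporter that Cre recombinase switches on. Mice were given PBS, 20a-LNP or 20mix-LNP, the last 2 being lipid nanoparticles that carried Cre mRNA at 0.3 mg/kg, and cells were taken 3 h later. Each treatment has 1 library, all 3 groups share the strain, digestion and sort, and the labels do not give how many animals a library stands for. The matrix marks the 3 libraries only by barcode suffixes 1, 2 and 3, which no label or header ties to a treatment, so no effect of either nanoparticle is reported and each library is named by its suffix. With 1 library per treatment there are no replicates of a treatment. No test was run between cell classes either, since the classes were gated on the same counts. All 95% intervals, in brackets after a value, cover counting error only, and the 3 library values show how far a level repeats.

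The 4638 barcodes held 24111183 UMIs, counts of distinct captured RNA molecules, with 6144949, 8754827 and 9211407 under suffixes 1, 2 and 3. Filtering left 3230 cells, of which 2238 were given a class because they had UMIs of at least 3 of its 6 marker genes and clearly fewer markers of any other class. The class names stand for these marker gates. No member was a marker. There were 296 plasmacytoid dendritic cells (83, 113 and 100 by suffix), 191 Kupffer cells, which are the resident macrophages, 886 sinusoidal endothelial cells and 554 NK or ILC1 cells. These are the 4 compared classes, with at least 20 cells in each library. Without the filter's mitochondrial maximum of 20% they held 478, 253, 1123 and 580 cells in this order. That maximum thus removed a larger share of plasmacytoid dendritic cells than of the others. Conventional dendritic 1 cells (91 cells, 19 of them under suffix 1, which missed that minimum) and the smaller classes are given pooled. Levels are UMIs per 1000000 UMIs of a class sum (CPM). Median depth was 11319.5 UMIs per plasmacytoid dendritic cell, 2753 per Kupffer cell, 5701 per sinusoidal endothelial cell and 6259 per NK or ILC1 cell. Genes known for plasmacytoid dendritic cells that the gate did not use were high in them: Bst2 stood at 3577 CPM, against at most 544 CPM in the other compared classes, Tcf4 at 2319.8 CPM against at most 1082 CPM, and Spib at 438 CPM against at most 0.984 CPM. In 3′ libraries a transcript is counted once at its end, so levels were not divided by transcript length.

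Plasmacytoid dendritic cells had the highest summed level of the 35 genes of the 10 classes that held cells. The sum was 10415 CPM (10300.0 to 10531), which was 9914, 10738 and 10509.9 CPM under suffixes 1, 2 and 3. Kupffer cells followed with 7240.4 CPM (7635, 6851 and 7213 CPM by suffix). Sinusoidal endothelial cells held 5881 CPM (5986, 5365 and 5973) and NK or ILC1 cells 5790.1 CPM (6118, 5658 and 5747). In each library the plasmacytoid dendritic sum lay above all 3 others, and Kupffer cells came second. The ratio of plasmacytoid dendritic cells was 1.44 (1.40 to 1.48) over Kupffer cells, 1.77 (1.74 to 1.80) over sinusoidal endothelial cells and 1.80 (1.77 to 1.83) over NK or ILC1 cells. The lowest neighbours in this order could not be parted: the ratio of sinusoidal endothelial to NK or ILC1 cells was 1.02 (0.997 to 1.03), above 1 in 1 of 3 libraries. Pooled, the smaller classes ran from 6612 CPM in conventional dendritic 1 cells and 6469 CPM in conventional dendritic 2 cells through 5675 CPM in monocytes, 5116 CPM in T cells and 3519.5 CPM in B cells to 2886 CPM in neutrophils.

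**Figure D1:**
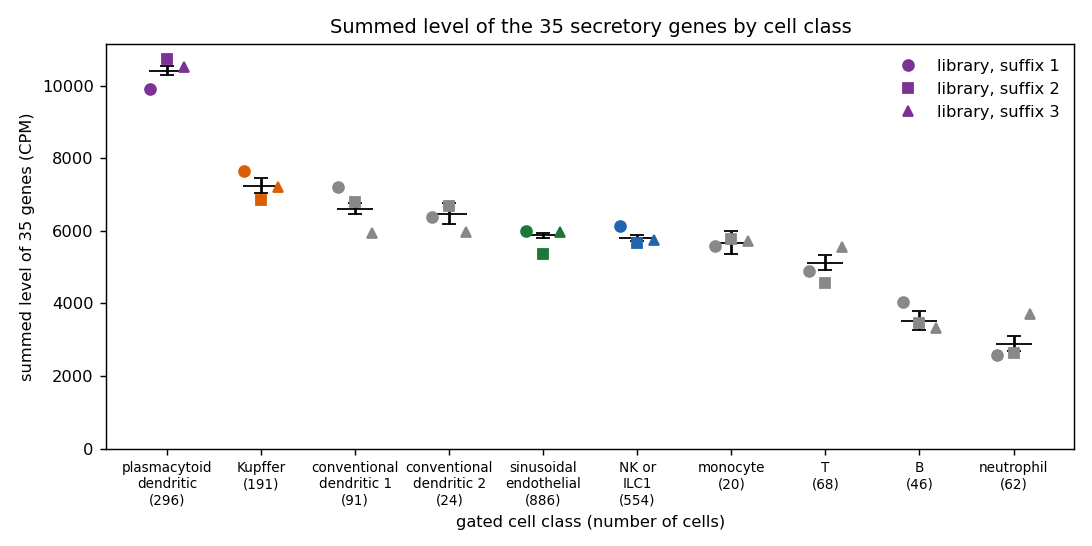
Summed level of the 35 genes (y axis, CPM) in each gated class (x axis). Bars are the pooled level with its 95% Poisson interval, and points are the 3 libraries by barcode suffix. The plasmacytoid dendritic libraries, between 9914 and 10738 CPM, lie above every library of the Kupffer, sinusoidal endothelial and NK or ILC1 cells.

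The difference was also seen cell by cell. The 35 genes took a median of 0.982% of a plasmacytoid dendritic cell's UMIs, against 0.668% in Kupffer cells, 0.544% in sinusoidal endothelial cells and 0.525% in NK or ILC1 cells. By suffix the plasmacytoid dendritic median was 0.935%, 1.00% and 0.987%. Of the plasmacytoid dendritic cells, 81.4% lay above the upper quartile of sinusoidal endothelial cells (0.691%). Depth differed between the classes. With every cell thinned to 1000 UMIs, which left out 39 Kupffer, 56 sinusoidal endothelial and 4 NK or ILC1 cells and no plasmacytoid dendritic cell, the ratios of the sum were 1.33, 1.66 and 1.79 over Kupffer, sinusoidal endothelial and NK or ILC1 cells.

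**Figure D2:**
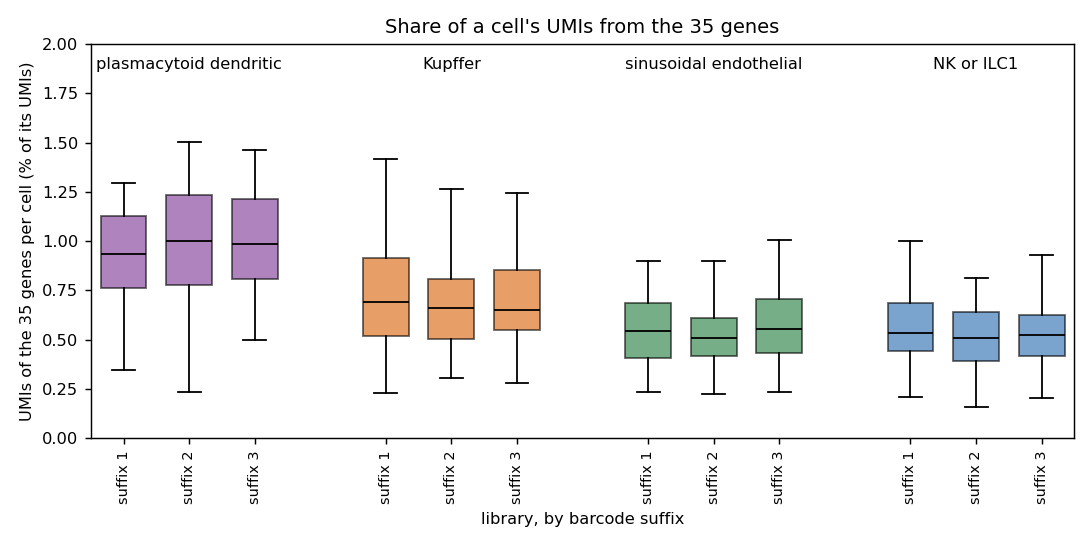
Share of each cell's UMIs that the 35 genes took (y axis, percent), by class and library suffix (x axis). Boxes span the quartiles with the median as a line, and whiskers reach the 5th and 95th percentiles of cells. The plasmacytoid dendritic boxes sit highest under all 3 suffixes, with medians of 0.935%, 1.00% and 0.987%.

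Gene by gene the picture was uneven, and how many members stood out depended on the class set against plasmacytoid dendritic cells. A gene was called when its pooled ratio was at least 2, or at most 0.5, with the same direction in all 3 libraries. The background is the share of the 6676 genes with a mean of at least 20 CPM over the 4 compared classes that were called in the same way. All 35 members reached that minimum, with means from 27.4 to 788 CPM. Over sinusoidal endothelial cells 15 of 35 members (42.9%) were higher, against 20.9% of all genes, and 3 were lower, against 29.0%. Over NK or ILC1 cells 11 (31.4%) were higher, against 14.1%, and 0 were lower, against 13.7%. Over Kupffer cells 9 (25.7%) were higher, near the background of 22.4%, and 1 was lower, against 17.2%. That share depended on the setting. It was 14 of 35, against 26.6% of all genes, with mitochondrial, ribosomal protein, hepatocyte and haemoglobin genes left out of the totals. These totals are called the reduced denominator. At a fold of 1.5 it was 19 of 35, against 32.2%. The other settings gave 8 to 12 of 35. The count was 8, against 20.5%, with a mitochondrial maximum of 10%. Without suffix 2 it was also 8, against 23.98%, and so below the background. It was 9, against 20.6%, with TMM scaling, and 10, against 27.7%, with each cell weighted equally. With a gate of 2 markers it was 12, against 25.4%. The 3 comparisons share the plasmacytoid dendritic cells, so they do not support each other. The median member ratio was 1.60 over Kupffer, 1.67 over sinusoidal endothelial and 1.496 over NK or ILC1 cells, beside medians of 1.11, 0.860 and 0.935 for all genes tested.

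Of the 4 compared classes, plasmacytoid dendritic cells held the highest level in all 3 libraries for 15 members, against 13.7% of all genes. That was so for 5 members in Kupffer cells (10.6% of genes), 3 in sinusoidal endothelial cells (27.3%) and 1, Sec11a, in NK or ILC1 cells (15.1%). The 15 members are Sec61a1, Sec61b, Sec61g, Srp9, Ssr1, Ssr2, Ssr4, Spcs2, Spcs3, Sec11c, Ostc, Ddost, Dnajb11, Manf and Xbp1. Of them 12 belong to translocation, signal sequence cleavage or glycan transfer. The lectin chaperones and disulfide isomerases gave none.

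**Figure D3:**
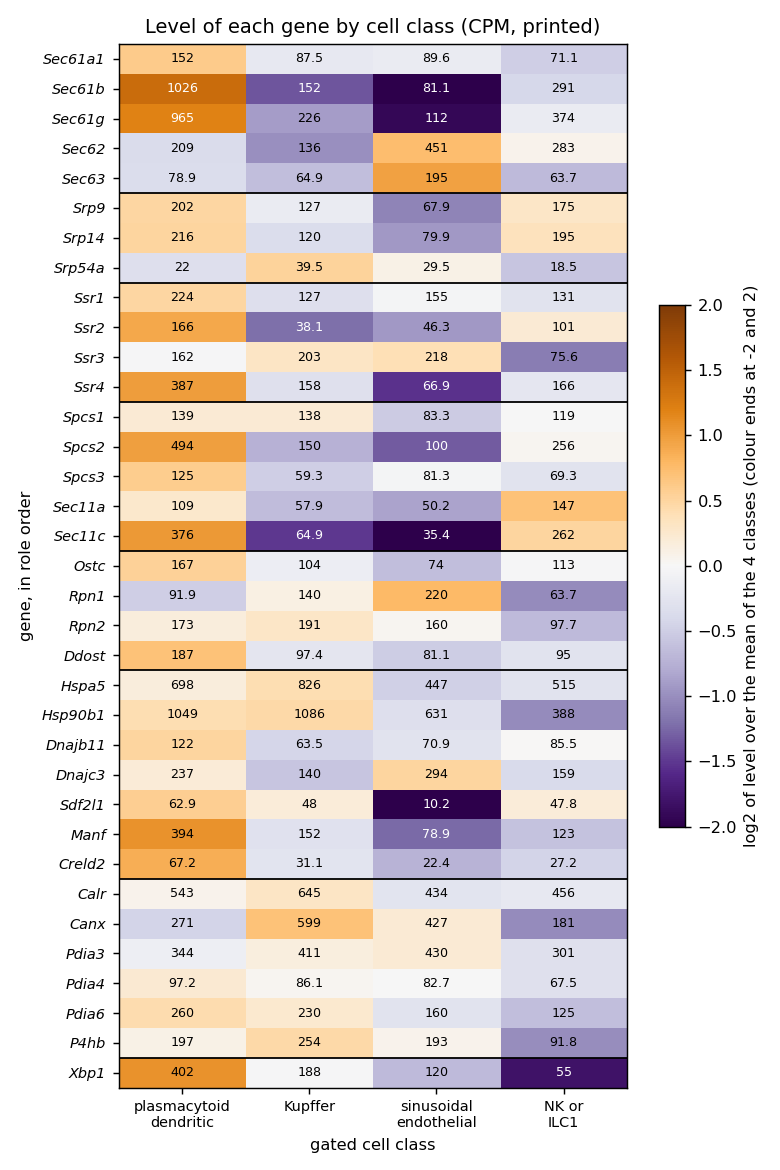
Level of each of the 35 genes (rows, grouped by role) in the 4 compared classes (columns). The number in each cell is the pooled CPM, and the colour is the log2 level relative to the gene's mean over the columns. The small translocon and signal peptidase genes are high in plasmacytoid dendritic cells relative to their mean, while Canx is highest in Kupffer cells (599 CPM) and Sec62, Sec63 and Rpn1 in sinusoidal endothelial cells (451, 195 and 220.3 CPM).

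The translocon had the largest ratio of any role over Kupffer cells. The 5 genes summed to 2431 CPM in plasmacytoid dendritic cells (2356, 2545 and 2379 by suffix), 666 CPM in Kupffer cells, 929 CPM in sinusoidal endothelial cells and 1082 CPM in NK or ILC1 cells. They made up 23.3% of the members' UMIs in plasmacytoid dendritic cells against 9.20% in Kupffer cells. The ratios were 3.65 (3.32 to 4.01), 2.62 (2.52 to 2.72) and 2.25 (2.16 to 2.34) over Kupffer, sinusoidal endothelial and NK or ILC1 cells, at least 2 in each library.

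Most of this came from Sec61b and Sec61g, which encode the small beta and gamma subunits of the Sec61 channel. Sec61b (chromosome 4, 47474658 to 47483242, plus strand) stood at 961, 1099.6 and 1007 CPM under suffixes 1, 2 and 3 in plasmacytoid dendritic cells. It stood at 198, 140.3 and 127 CPM in Kupffer cells, 84.4, 70.2 and 82.5 CPM in sinusoidal endothelial cells and 283, 311 and 269.7 CPM in NK or ILC1 cells. Every plasmacytoid dendritic library was far above every library of the others. The ratios were 12.7 (11.4 to 14.1) over sinusoidal endothelial cells, the largest of any member in any comparison here, 6.73 (5.55 to 8.23) over Kupffer cells and 3.53 (3.29 to 3.80) over NK or ILC1 cells. Sec61g gave 963, 1022 and 909.7 CPM in plasmacytoid dendritic cells, 229.8, 221 and 227 CPM in Kupffer cells, 107, 109 and 114 CPM in sinusoidal endothelial cells and 366, 382 and 369 CPM in NK or ILC1 cells, with ratios of 4.27, 8.64 and 2.58. Among the smaller classes, conventional dendritic 1 cells, conventional dendritic 2 cells and monocytes came next, with Sec61b at 554, 625 and 596 CPM and Sec61g at 602, 625 and 536 CPM. Neutrophils held 245 CPM of Sec61b and 159 CPM of Sec61g.

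The channel subunit itself differed less. Sec61a1, which encodes the pore, stood at 142, 144 and 169 CPM in plasmacytoid dendritic cells and at 87.5, 89.6 and 71.1 CPM in Kupffer, sinusoidal endothelial and NK or ILC1 cells. Its ratios were 1.74 (1.33 to 2.30), 1.70 (1.49 to 1.94) and 2.14 (1.82 to 2.51), the last of them called, though it was 1.97 with a gate of 2 markers and 1.77 after thinning.

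Sec62 and Sec63, partners of the channel that serve proteins inserted after translation, ran the other way. Sec62 stood at 204, 213 and 209 CPM in plasmacytoid dendritic cells and 426, 403 and 476 CPM in sinusoidal endothelial cells, a ratio of 0.463 (0.423 to 0.506). Sec63 stood at 87.2, 66.2 and 84.6 CPM and 197, 213 and 189.9 CPM in the same classes, a ratio of 0.404 (0.349 to 0.466). Both were called lower than in sinusoidal endothelial cells, with no overlap between the libraries of the classes. The call of Sec62 was lost at 0.541 with the reduced denominator, at 0.537 with TMM scaling and at 0.5004 without suffix 3. Against Kupffer cells the ratios were 1.54 and 1.22, and against NK or ILC1 cells 0.738 and 1.24, none of them called.

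The balance within the translocon therefore differed between classes more than its sum did. The UMIs of Sec61b and Sec61g together were 6.92 (6.44 to 7.44) times those of Sec62 and Sec63 in plasmacytoid dendritic cells, with 6.61, 7.60 and 6.54 by suffix. The same ratio was 0.298 (0.277 to 0.320) in sinusoidal endothelial cells, with 0.307, 0.291 and 0.296 by suffix. Kupffer and NK or ILC1 cells lay between, at 1.89 (1.53 to 2.33) and 1.92 (1.79 to 2.06). Conventional dendritic 1 cells (6.38), conventional dendritic 2 cells (6.63) and monocytes (6.86) were near plasmacytoid dendritic cells. This ratio needs no scaling between classes, and it was chosen after the levels had been seen.

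The signal recognition particle, which brings ribosomes to the ER, was higher in plasmacytoid dendritic cells than in sinusoidal endothelial cells, with a smaller difference over Kupffer cells and little over NK or ILC1 cells. Its 3 genes summed to 439.8 CPM, and the ratios were 2.48 (2.28 to 2.70) over sinusoidal endothelial, 1.53 (1.32 to 1.79) over Kupffer and 1.13 (1.05 to 1.22) over NK or ILC1 cells. The last fell to 0.978 when the gate asked for 2 markers. Srp9 and Srp14, the pair that binds the Alu domain of the particle's RNA, stood at 197, 218 and 189.8 CPM and 202, 234 and 210.5 CPM in plasmacytoid dendritic cells, against 80.7, 61.5 and 63.9 CPM and 83.7, 62.7 and 82.9 CPM in sinusoidal endothelial cells. Both pairs are clear of each other in every library, with ratios of 2.97 and 2.70. Srp54a, the subunit that binds the signal sequence, stood lowest of all members in plasmacytoid dendritic cells, at 22.0 CPM against 39.5 CPM in Kupffer cells. It has near-identical copies in the mouse genome among which reads may be split, so its level is uncertain.

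The translocon-associated protein complex sits beside the channel and helps some signal sequences to enter. Its 4 genes summed to 938 CPM in plasmacytoid dendritic cells (919.8, 968 and 924 by suffix), with ratios of 1.78 (1.60 to 1.99), 1.93 (1.83 to 2.04) and 1.98 (1.86 to 2.10) over Kupffer, sinusoidal endothelial and NK or ILC1 cells. Ssr4, the delta subunit, stood at 383, 394 and 383 CPM in plasmacytoid dendritic cells, 184, 195 and 113 CPM in Kupffer cells, 50.8, 66.5 and 74.4 CPM in sinusoidal endothelial cells and 169.6, 180.5 and 145 CPM in NK or ILC1 cells. It was called higher in all 3 comparisons, with ratios of 2.45, 5.78 and 2.33, although the ratio over Kupffer cells was 1.57 with each cell weighted equally and 1.90 after thinning. Ssr2, the beta subunit, stood at 146, 179.8 and 168 CPM and was called over Kupffer (4.35) and sinusoidal endothelial cells (3.58). Ssr1, the alpha subunit, stood at 245, 228 and 202 CPM with ratios from 1.44 to 1.76, none called. Ssr3, the gamma subunit, was the exception: at 162 CPM it lay below sinusoidal endothelial cells (218 CPM, ratio 0.744 (0.667 to 0.828)) and above NK or ILC1 cells (75.6 CPM, ratio 2.14 (1.83 to 2.50)), the latter falling to 1.96 with a gate of 2 markers or without suffix 3.

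The signal peptidase genes were high in plasmacytoid dendritic cells and, less so, in NK or ILC1 cells. The 5 genes summed to 1243 CPM in plasmacytoid dendritic cells, 852 CPM in NK or ILC1 cells, 470.1 CPM in Kupffer cells and 351 CPM in sinusoidal endothelial cells. The ratios of plasmacytoid dendritic cells were 1.46 (1.39 to 1.53), 2.64 (2.36 to 2.97) and 3.55 (3.35 to 3.75) over these 3 classes.

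The enzyme has alternative catalytic subunits, Sec11a and Sec11c, and they differed in distribution. Sec11c stood at 364, 389.9 and 373 CPM in plasmacytoid dendritic cells and 288, 249 and 261 CPM in NK or ILC1 cells. In Kupffer cells it stood at 87.3, 40.1 and 65.2 CPM and in sinusoidal endothelial cells at 32.1, 37.6 and 36.3 CPM. The plasmacytoid dendritic libraries were highest in each case, with ratios of 10.6 (9.06 to 12.5) over sinusoidal endothelial cells, 5.79 (4.31 to 7.96) over Kupffer cells and 1.44 (1.32 to 1.57) over NK or ILC1 cells. Sec11a was highest in NK or ILC1 cells in all 3 libraries (148, 153 and 138 CPM) and stood at 98.6, 108 and 117 CPM in plasmacytoid dendritic cells, a ratio of 0.738 (0.640 to 0.851). Over the other classes Sec11a ran the same way as Sec11c. Its ratio was 2.16 (1.83 to 2.56) over sinusoidal endothelial cells, called but 1.81 after thinning. Over Kupffer cells it was 1.88 (1.35 to 2.66), not called. Spcs2, an accessory subunit, stood at 438, 529.9 and 506 CPM in plasmacytoid dendritic cells and 264, 242 and 268 CPM in NK or ILC1 cells, and its ratios were 3.30, 4.92 and 1.93 over Kupffer, sinusoidal endothelial and NK or ILC1 cells. The remaining accessory subunits differed less: Spcs3 had ratios from 1.54 to 2.11, called over Kupffer cells but 1.91 without suffix 2, and Spcs1 from 1.00 to 1.67.

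The oligosaccharyltransferase genes, which add N-linked glycans, differed less, with a sum slightly higher in plasmacytoid dendritic cells than in Kupffer and sinusoidal endothelial cells. The sums were 619 CPM, 532 CPM and 535 CPM, with ratios of 1.16 (1.04 to 1.30) and 1.16 (1.09 to 1.23), and 1.67 (1.56 to 1.80) over NK or ILC1 cells (369.7 CPM). The members differed in opposite directions. Ddost, a structural subunit, stood at 169.9, 229.9 and 158 CPM in plasmacytoid dendritic cells, against 91.2, 67.7 and 80.2 CPM in sinusoidal endothelial cells, a ratio of 2.30 (2.02 to 2.62) that was 1.95, and so no longer called, without suffix 2. Rpn1, which binds substrates, stood at 91.8, 97.5 and 86.5 CPM against 230.2, 198 and 222 CPM in the same classes, a ratio of 0.417 (0.364 to 0.476), and was called lower. Ostc, which links the enzyme to the translocon, was called higher than in sinusoidal endothelial cells (2.26), and Rpn2 (173 CPM) was not called in any comparison.

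**Figure D4:**
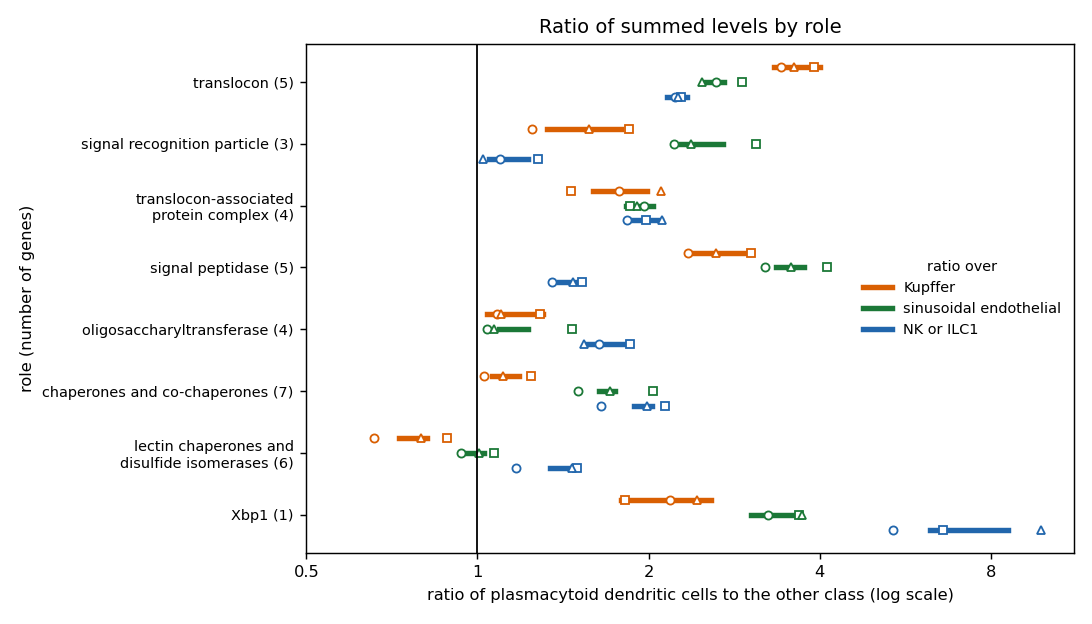
Ratio of the summed level in plasmacytoid dendritic cells to that in each other compared class (x axis, log scale), by role (y axis, number of genes in brackets). Bars are 95% counting intervals of the pooled ratio, and the circle, square and triangle are the libraries of suffixes 1, 2 and 3. Translocon ratios lie between 2.25 and 3.65, while those of lectin chaperones and disulfide isomerases lie between 0.770 and 1.40.

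The most abundant chaperone genes, Hsp90b1 and Hspa5, were as high or higher in Kupffer cells than in plasmacytoid dendritic cells. The 7 chaperone and co-chaperone genes summed to 2629 CPM in plasmacytoid dendritic cells (2429.8, 2710.1 and 2715 by suffix) and 2346 CPM in Kupffer cells (2363, 2180.0 and 2448), a ratio of 1.12 (1.06 to 1.18). Over sinusoidal endothelial cells (1555 CPM) the ratio was 1.69 (1.64 to 1.75), and over NK or ILC1 cells (1346 CPM) it was 1.95 (1.88 to 2.03).

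Hsp90b1 encodes GRP94, the ER member of the Hsp90 family, which is needed to fold Toll-like receptors and integrins. It stood at 957, 1087 and 1086 CPM in plasmacytoid dendritic cells and 1126, 992 and 1119 CPM in Kupffer cells, with overlapping libraries and a ratio of 0.966 (0.893 to 1.05), whose interval holds 1. Over NK or ILC1 cells (436, 347 and 409.8 CPM) the ratio was 2.70 (2.53 to 2.89). Hspa5 encodes BiP, the ER Hsp70, and stood at 634, 695 and 755 CPM in plasmacytoid dendritic cells against 777, 787 and 889 CPM in Kupffer cells, a ratio of 0.845 (0.771 to 0.928) that was below 1 in all 3 libraries. Neutrophils, the class with the lowest sum, held 836 CPM of Hspa5, near the pooled Kupffer level of 826 CPM, beside an Hsp90b1 level of 50.6 CPM. Hsp90b1 UMIs per Hspa5 UMI came to 0.0605 (0.0317 to 0.106) in neutrophils and 1.502 (1.42 to 1.59) in plasmacytoid dendritic cells, a comparison chosen after the levels had been seen.

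Manf, an ER protein that can be secreted and is induced by ER stress, had the largest ratio to the next compared class of the 7 chaperone and co-chaperone genes. It stood at 367, 425 and 385 CPM there, 161, 120.3 and 168 CPM in Kupffer cells, 85.9, 57.7 and 81.5 CPM in sinusoidal endothelial cells and 140.0, 125 and 110.2 CPM in NK or ILC1 cells. No library of another compared class reached the plasmacytoid dendritic range, and all 3 ratios were called: 2.58 (2.12 to 3.18), 4.99 (4.45 to 5.60) and 3.20 (2.86 to 3.59). The ratio over Kupffer cells was 1.96 with each cell weighted equally and 1.84 after thinning, below the call. Creld2, a stress-inducible ER protein, was called over sinusoidal endothelial (3.00) and NK or ILC1 cells (2.47) at a low level of 58.9, 77.6 and 63.9 CPM. Sdf2l1, part of BiP complexes, stood at 62.9 CPM in plasmacytoid dendritic cells and 10.2 CPM in sinusoidal endothelial cells, and was higher still in conventional dendritic 1 cells, at 132 CPM. Of the J-domain partners of BiP, Dnajb11 had ratios from 1.43 to 1.92. Dnajc3 stood at 236, 237 and 238 CPM against 297, 217 and 314 CPM in sinusoidal endothelial cells, with overlapping libraries and a ratio of 0.805 (0.735 to 0.881).

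The lectin chaperones and disulfide isomerases were the one role whose sum was lower in plasmacytoid dendritic than in Kupffer cells in every library. The 6 genes summed to 1654, 1726 and 1749 CPM in plasmacytoid dendritic cells and 2514, 1954 and 2194 CPM in Kupffer cells, a ratio of 0.770 (0.728 to 0.815). The sum in sinusoidal endothelial cells was 1770.3, 1612 and 1740.1 CPM. That ratio of 0.991 (0.958 to 1.03) was below 1 in 1 library and lay above 1 under 4 alternatives: 1.01 both with a gate of 4 markers and without suffix 1, 1.15 with TMM scaling and 1.16 with the reduced denominator. Over NK or ILC1 cells the ratio was 1.40 (1.34 to 1.46).

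Canx, the membrane-bound lectin chaperone calnexin, carried the largest difference in this role. It stood at 276, 245 and 292 CPM in plasmacytoid dendritic cells, 676, 501 and 608 CPM in Kupffer cells, 446, 388 and 429 CPM in sinusoidal endothelial cells and 214, 172 and 171 CPM in NK or ILC1 cells. Plasmacytoid dendritic cells lay below Kupffer and sinusoidal endothelial cells and above NK or ILC1 cells in every library, and the ratio over Kupffer cells of 0.453 (0.402 to 0.510) was the only lower call in that comparison, and 0.505 with the reduced denominator. Calr, its soluble relative calreticulin, stood at 522, 533 and 569 CPM against 823, 491 and 618 CPM in Kupffer cells, with overlapping libraries and a ratio of 0.841 (0.758 to 0.935). Pdia3, the isomerase that works with both lectins, stood at 313, 368 and 347 CPM against 432, 406 and 436 CPM in sinusoidal endothelial cells, a ratio of 0.800 (0.742 to 0.862). Pdia6 and P4hb, which form and rearrange disulfide bonds, were called higher than in NK or ILC1 cells (2.08, or 1.95 without suffix 2, and 2.15), and Pdia4 was not called in any comparison.

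Xbp1 encodes a transcription factor that drives ER expansion in plasma cells and other secretory cells. It stood at 391, 337 and 476 CPM under suffixes 1, 2 and 3 in plasmacytoid dendritic cells. Kupffer cells held 179, 185 and 196 CPM, sinusoidal endothelial cells 120.3, 91.6 and 128 CPM and NK or ILC1 cells 72.7, 51.1 and 48.5 CPM. The order was the same in all 3 libraries, without overlap between plasmacytoid dendritic cells and any of the others, and the ratios were 2.14 (1.79 to 2.58), 3.35 (3.03 to 3.69) and 7.31 (6.25 to 8.58). The first was no longer called at 1.67 with a gate of 2 markers, 1.73 after thinning and 1.98 without suffix 3. The plasmacytoid dendritic libraries also differed among themselves: the level under suffix 3 was 1.41 times that under suffix 2, and their intervals were apart. Xbp1 RNA is activated by removal of a short intron, which 3′ UMI counts do not show. Markers of plasma cells, which share high Xbp1, summed to 10.7 CPM in plasmacytoid dendritic cells with 3 of 6 at 0, and Jchain stood at 0.333 CPM. Immunoglobulin RNA was present all the same. A second list that overlaps the first (Jchain, Igha, Igkc, Ighm and Iglc2) summed to 1314 CPM in plasmacytoid dendritic cells (1329, 1224 and 1392 by suffix), 7.06 CPM in Kupffer cells, 4.33 CPM in sinusoidal endothelial cells, 159.6 CPM in NK or ILC1 cells and 12749 CPM in B cells. Most of it was Ighm, the heavy chain gene of IgM, at 1105 CPM in plasmacytoid dendritic cells, followed by Igkc at 179 CPM. The part of this RNA in the Xbp1 level was not tested.

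Across the 35 members, 6 had library intervals that did not overlap within plasmacytoid dendritic cells: Sec61b, Spcs2, Ddost, Hspa5, Hsp90b1 and Xbp1. The share of all genes with such intervals was not computed, so this count cannot be read as particular to the members. The highest library was a median of 1.16 times the lowest, with a range from 1.01 to 1.46 times, the last at Ddost. Whether the suffix differences follow treatment cannot be told apart from library or animal here.

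Part of the folding genes share a promoter sequence, shown here because, among the members searched, only folding genes had it. The ER stress response element (ERSE) consists of CCAAT, 9 further bases and CCACG, and is known to be bound by NF-Y and ATF6. It was searched on both strands in RefSeq promoter windows of GRCm38.p6 from 250 bases before to 50 bases after the start site, which were found for 29 of the 35 members. It occurred in 7 of the 29 (24.1%), against 37 of 27025 genes in the same table (0.137%). The element is one already known for ER stress genes, so this contrast is a description and not a test. All 7 are folding genes: Hspa5, Hsp90b1, Dnajc3, Creld2, Calr, Canx and Pdia6, with 2 copies at Hsp90b1. The folding genes Sdf2l1, Dnajb11, Pdia3, Pdia4 and P4hb had a window without it. No window was found for Sec61a1, Ssr2, Spcs3, Sec11c, Ostc and Manf, of which only Manf is a folding gene. The search therefore missed mostly translocation and processing genes. Capitals mark the element, and a match on the opposite strand reads CGTGG, 9 bases, ATTGG.
Hspa5, chr2:34772005-34772063, plus strand: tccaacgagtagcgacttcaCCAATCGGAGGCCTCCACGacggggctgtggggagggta
Hsp90b1, chr10:86705513-86705676, minus strand: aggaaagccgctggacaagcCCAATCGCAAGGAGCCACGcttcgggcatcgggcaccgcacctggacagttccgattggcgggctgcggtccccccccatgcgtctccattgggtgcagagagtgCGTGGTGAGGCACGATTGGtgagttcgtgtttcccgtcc
Calr, chr8:84847055-84847113, minus strand: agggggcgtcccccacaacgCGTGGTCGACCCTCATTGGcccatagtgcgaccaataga
Canx, chr11:50325780-50325838, minus strand: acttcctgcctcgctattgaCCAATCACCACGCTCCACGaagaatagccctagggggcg
Creld2, chr15:88819500-88819558, plus strand: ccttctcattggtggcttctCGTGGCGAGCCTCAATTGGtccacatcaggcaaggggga
Dnajc3, chr14:118937807-118937865, plus strand: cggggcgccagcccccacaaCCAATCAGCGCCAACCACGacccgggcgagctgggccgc
Pdia6, chr12:17266471-17266529, plus strand: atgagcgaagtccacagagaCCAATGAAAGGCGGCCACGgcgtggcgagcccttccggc

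The element lay between 47 and 212 bases before the start site, and closest at Hspa5. A related form, ERSE-II (ATTGGNCCACG), was found only at Dnajb11 among the members and at 0.0444% of genes. The sequence TGACGTGG (UPRE), known to be bound by the XBP1 protein, was in 0 of the 29 member windows, against 0.714% of genes, and in 6 of 53 other secretory pathway genes (11.3%). That count covers this sequence only and does not show that the members lack sequences that XBP1 can bind. The 8 members with ERSE or ERSE-II had a median plasmacytoid dendritic ratio of 1.05 over Kupffer, 1.59 over sinusoidal endothelial and 1.49 over NK or ILC1 cells. The 21 members without either had medians of 1.54, 1.67 and 1.44. The search was made after the levels were known, and a match describes letters in a window, not a bound site.

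The members that most favoured plasmacytoid dendritic cells over sinusoidal endothelial cells were also those with the shortest mRNAs. The 9 members whose median annotated mRNA was under 1000 nt (Sec61b at 564 nt, Srp14, Sec61g, Ssr4, Sec11c, Ssr2, Spcs2, Spcs1 and Sec11a) had a median ratio of 4.92, from 1.67 to 12.7. The 26 longer members, up to 6032 nt at Sec63, had a median of 1.49, from 0.404 to 6.15. Across the 35 members, Spearman's rho between mRNA length and this ratio was -0.843 and Pearson's r of the logarithms -0.848, with rho at -0.852, -0.826 and -0.855 by suffix. Against Kupffer cells rho was -0.636, and against NK or ILC1 cells -0.162. Over all tested genes the values were -0.390, -0.161 and -0.0991. All points share the same libraries, and the relation was looked for after the ratios had been seen.

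Short genes of all kinds leaned the same way against sinusoidal endothelial cells: the median ratio was 2.12 for the 657 tested genes under 1000 nt and 0.789 for the 5949 longer ones. Against Kupffer cells these medians were 1.68 and 1.06, and against NK or ILC1 cells 1.04 and 0.920. The short and longer members had medians of 3.30 and 1.26 over Kupffer cells, and 1.64 and 1.49 over NK or ILC1 cells. Ribosomal protein genes, which are short, took 19.2% of UMIs in plasmacytoid dendritic cells, 21.2% in NK or ILC1 cells, 7.73% in Kupffer cells and 5.46% in sinusoidal endothelial cells. Hepatocyte transcripts, RNA of cells outside the gates, stood at 101 CPM in plasmacytoid dendritic cells, 1012 CPM in Kupffer cells and 220.3 CPM in sinusoidal endothelial cells, and haemoglobin transcripts at 15.0, 121 and 2799 CPM. The last value came from 1 library: it was 13.5, 107.9 and 4795 CPM under suffixes 1, 2 and 3. Their part in the results was not tested. With these genes and mitochondrial genes left out of the totals, the summed ratios of the 35 members were 1.60 and 2.07 over Kupffer and sinusoidal endothelial cells. That step changed the totals only and left the members' own counts as they were.

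**Figure D5:**
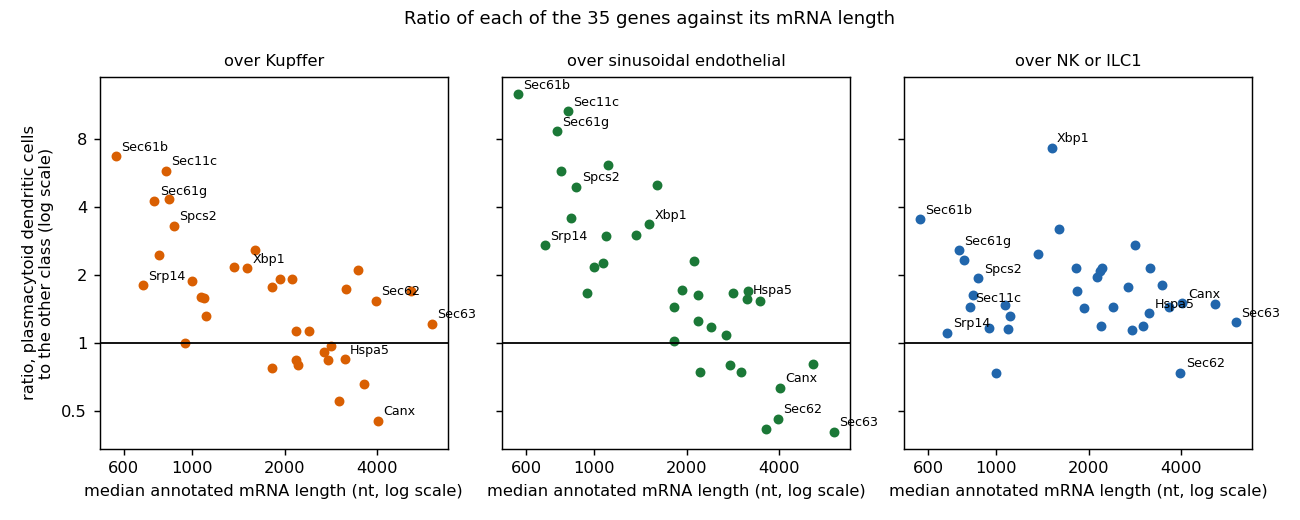
Ratio of plasmacytoid dendritic cells to each other compared class (y axis, log scale) against median annotated mRNA length (x axis, nt, log scale) for the 35 members, each a point. Against sinusoidal endothelial cells the points fall from 12.7 at Sec61b (564 nt) to 0.404 at Sec63 (6032 nt).

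The members were set beside 66 other genes of the secretory pathway, of which 59 reached the minimum level. Of these 59, 15 were called higher than in Kupffer cells, against 22.4% of all genes, and 1 lower, against 17.2%. Over sinusoidal endothelial cells 14 were higher, against 20.9%, and 7 lower, against 29.0%. The higher counts in these 2 comparisons lie near the share of all genes. Over NK or ILC1 cells 20 were higher, against 14.1%, and 3 lower, against 13.7%. Plasmacytoid dendritic cells held the highest level in all 3 libraries for 27 of the 59, against 13.7% of all genes. These counts include genes that reached the minimum only through their plasmacytoid dendritic level, such as Mzb1 at 222 CPM.

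Mzb1, a BiP partner known from B cells and plasma cells, had the clearest distribution. It stood at 209.6, 254 and 201 CPM by suffix in plasmacytoid dendritic cells, on 667 UMIs, and 0 UMIs were counted in Kupffer, sinusoidal endothelial or NK or ILC1 cells. Taking the limit of 3 counts that a count of 0 allows over each class, it was at least 52.4-fold, 376-fold and 248-fold higher than in these classes. B cells held 299 CPM, and conventional dendritic 1 cells 0 UMIs. Txndc5, a disulfide isomerase, stood at 239, 195 and 188 CPM with ratios of 3.16, 2.70 and 8.09. Edem2, which trims glycans of misfolded proteins, stood at 129, 135 and 122 CPM with ratios of 2.07, 4.48 and 5.46. Sec24d, of the coat of vesicles that leave the ER, stood at 55.5, 77.6 and 66.7 CPM with ratios of 1.98, 2.39 and 5.0002. Tmed2, a cargo receptor of these vesicles, stood at 377, 398 and 361 CPM with ratios of 1.97, 2.50 and 1.96.

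Transport genes also held the opposite pattern. Mcfd2, a cargo receptor subunit, stood at 35.1, 35.01 and 26.3 CPM in plasmacytoid dendritic cells against 163, 143 and 150.5 CPM in sinusoidal endothelial cells, a ratio of 0.209 (0.168 to 0.259). Creb3l2, a transcription factor for transport genes, stood at 38.5, 41.6 and 39.5 CPM against 126, 147 and 150.5 CPM in the same classes, a ratio of 0.278 (0.228 to 0.338). Kdelr2, which returns escaped ER proteins, stood at 64.6, 65.3 and 72.4 CPM against 246, 246 and 226 CPM, a ratio of 0.288 (0.247 to 0.335). The 3 genes lower than in NK or ILC1 cells were Ddit3, Ero1l and Ppp1r15a, named after their values were seen, and Ddit3 and Ppp1r15a belong to the PERK arm of the unfolded protein response.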

How the data were processed

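The authors deposited raw UMI counts, not normalized, in a matrix of 31053 genes by 4638 barcodes. It was written by software version 3.1.0 per the file headers. The submitters' processing notes list Cell Ranger, STAR, Seurat, edgeR and the build mm10, with no role for each. Strand use and read filters are not stated. Index sequences in 2 sample sheets served no step here.

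A barcode needed 200 or more detected genes and a mitochondrial share of UMIs of 20% or less, and 1408 failed. A cell took a class when at least 3 of 6 markers had at least 1 UMI, no other class had 3, and the lead was at least 2 markers. This left 992 kept cells in no class and 0 cells in the plasma and stellate classes. Doublets were treated by the gate alone, and Scrublet (scanpy 1.11.5) as an alternative called 23, none of them plasmacytoid dendritic. There were 3 barcode sequences shared between libraries, which touch 6 gated cells.

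Counts were summed per class and given as CPM with exact Poisson 95% intervals. The interval of a ratio is exact, conditional on the summed count of both classes. A call needs a pooled ratio of at least 2 or at most 0.5 and the same direction in 3 libraries, among genes with a mean of at least 20 CPM. No p-value was computed. Python 3.11.15, numpy 2.4.6, scipy 1.17.1 and pandas 2.3.3 were used, and edgeR 4.0.16 only for TMM scaling. The calculation was tested on simulated data. Precision is set by the UMIs of a class: 3003718 in plasmacytoid dendritic, 708384 in Kupffer, 5079596 in sinusoidal endothelial and 3345883 in NK or ILC1 cells.

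The genes and lists were chosen with earlier results of these data known. Values are given in full for Xbp1 and, in each role, for the 2 members highest in plasmacytoid dendritic cells and those with the largest and smallest ratio to the highest other compared class; of the other pathway list, for the 5 largest and 3 smallest such ratios. Positions and mRNA lengths, the median over coding transcripts, come from GENCODE on GRCm38, the build of mm10. Alternatives covered the mitochondrial maximum, the gate, the totals, TMM scaling, equal weight per cell, thinning to 1000 UMIs, Scrublet, the fold, each library left out and, chosen after seeing the data, cells with shared barcodes left out.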

Additional observations from a re-analysis of the deposited data

How the results depend on the processing

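The ratio of the 35-gene sum stayed above 1 under all alternatives run. Over Kupffer cells (1.44) it was 1.37 with a mitochondrial maximum of 10%, 1.31 with none, 1.31 with a gate of 2 markers, 1.60 with mitochondrial, ribosomal protein, hepatocyte and haemoglobin genes left out of the totals (the reduced denominator), 1.36 with TMM scaling, 1.36 with each cell weighted equally, 1.33 after thinning, 1.52 without the highest member, Hsp90b1, and 1.38 to 1.504 with a library left out. Over sinusoidal endothelial cells (1.77) it was 1.66 with no mitochondrial maximum, 1.58 and 1.80 with gates of 2 and 4 markers, 2.07 with the reduced denominator, 2.06 with TMM scaling, 1.69 per cell, 1.66 after thinning and 1.71 to 1.82 with a library left out. Over NK or ILC1 cells (1.80) it was 1.84 with the 10% maximum, 1.72 with none, 1.64 with a gate of 2, 1.95 with TMM scaling, 1.73 without Hsp90b1 and 1.74 to 1.86 with a library left out. Members higher than in Kupffer cells went from 9 (22.4% of all genes) to 14 (26.6%) with the reduced denominator and 19 (32.2%) at a fold of 1.5. They went to 8 with a mitochondrial maximum of 10% (20.5%) and without suffix 2 (23.98%). They went to 10 (27.7%) per cell and 12 (25.4%) with a gate of 2, and stayed at 9 (20.6%) with TMM scaling. Members lower went from 1 to 2 with a gate of 2, 0 with the reduced denominator, 3 at a fold of 1.5, and 1 to 2 with a library left out, the second being Srp54a without suffix 3. At a fold of 1.5, members higher than in NK or ILC1 cells went from 11 (14.1% of all genes) to 17 (21.0%), and against sinusoidal endothelial cells 22 were higher (28.8%) and 4 lower (38.6%), from 15 and 3. The cause was not tested. With no minimum level, 16662 genes were tested and the members' counts did not change.

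Of 273 recomputed role ratios 79 moved beyond their interval. Those of 2 results crossed 1: the signal recognition particle over NK or ILC1 cells under 1 alternative, and the lectin chaperones and isomerases over sinusoidal endothelial cells, whose libraries differed in direction, under 4. Translocon ratios over Kupffer cells (3.65) were 3.03 with a gate of 2, 4.07 with the reduced denominator, 2.77 per cell and 3.09 after thinning. Over sinusoidal endothelial cells (2.62) they were 2.39 with no mitochondrial maximum, 2.17 (gate of 2), 3.06 (reduced denominator), 3.04 (TMM), 2.42 (per cell), 2.31 (thinned) and 2.52 to 2.77 with a library left out. Over NK or ILC1 cells (2.25) they were 2.11 with no mitochondrial maximum, 1.85 (gate of 2), 2.44 (TMM) and 2.15 (thinned). The signal recognition particle gave 1.27 per cell over Kupffer cells (1.53), and 0.978 (gate of 2) and 1.23 (TMM) over NK or ILC1 cells (1.13). Against sinusoidal endothelial cells (2.48) it gave 2.26 both with no mitochondrial maximum and per cell, 2.12 (gate of 2), 2.90 (reduced denominator), 2.88 (TMM) and 2.16 (thinned). The translocon-associated protein complex gave 1.82 (no mitochondrial maximum), 1.69 (gate of 2), 2.26 (reduced denominator) and 2.24 (TMM) over sinusoidal endothelial cells (1.93). Against NK or ILC1 cells (1.98) it gave 1.81 (gate of 2) and 2.15 (TMM).

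Signal peptidase ratios were 2.33 (gate of 2) and 2.24 (thinned) over Kupffer cells (2.64), and 1.39 (no mitochondrial maximum), 1.34 (gate of 2) and 1.58 (TMM) over NK or ILC1 cells (1.46). Over sinusoidal endothelial cells (3.55) they were 3.29 (no mitochondrial maximum), 3.22 (gate of 2), 4.14 (reduced denominator), 4.12 (TMM) and 3.26 (thinned). The oligosaccharyltransferase gave 1.04 with no mitochondrial maximum over Kupffer cells (1.16), and 1.55 (gate of 2), 1.82 (TMM) and 1.86 (thinned) over NK or ILC1 cells (1.67). Against sinusoidal endothelial cells (1.16) it gave 1.09 (no mitochondrial maximum), 1.05 (gate of 2), 1.35 (reduced denominator), 1.34 (TMM) and 1.06 to 1.22 with a library left out. Chaperone ratios over Kupffer cells (1.12) were 1.00 (no mitochondrial maximum), 1.06 both with a gate of 2 and with TMM, and 1.25 (reduced denominator). Over sinusoidal endothelial cells (1.69) they were 1.61 (no mitochondrial maximum), 1.59 and 1.75 (gates of 2 and 4), 1.98 (reduced denominator), 1.96 (TMM) and 1.62 to 1.77 with a library left out. Over NK or ILC1 cells (1.95) they were 1.86 (gate of 2), 2.12 (TMM) and 1.84 to 2.07 with a library left out.

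Lectin chaperone and isomerase ratios over Kupffer cells (0.770) were 0.706 (no mitochondrial maximum), 0.859 (reduced denominator), 0.681 (thinned) and 0.732 to 0.829 with a library left out. Set against sinusoidal endothelial cells (0.991) they were 0.921 (no mitochondrial maximum), 0.931 (gate of 2), 1.16 (reduced denominator), 1.15 (TMM), 0.936 (per cell) and 0.895 (thinned). Set against NK or ILC1 cells (1.40) they were 1.32 (no mitochondrial maximum), 1.52 (TMM), 1.47 (thinned) and 1.33 to 1.49 with a library left out. Xbp1 gave 1.67 (gate of 2) and 1.73 (thinned) over Kupffer cells (2.14). Set against sinusoidal endothelial cells (3.35) it gave 2.87 (gate of 2), 3.91 (reduced denominator), 3.89 (TMM) and 2.94 (thinned). Set against NK or ILC1 cells (7.31) it gave 6.20 (gate of 2) and 6.20 to 8.14 with a library left out.

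Of 39 called member ratios, 28 kept their call under all alternatives other than the fold. The 11 that lost it under at least 1 were Ssr4, Spcs3, Manf, Canx and Xbp1 against Kupffer cells, Sec62, Sec11a and Ddost against sinusoidal endothelial cells, and Sec61a1, Ssr3 and Pdia6 against NK or ILC1 cells. Of 105 member ratios, 12 lay on the other side of 1 under some alternative, 3 of them (Spcs1, Rpn2 and Hsp90b1, all against Kupffer cells) under TMM scaling or the reduced denominator. The gate of 2 kept 117 plasmacytoid dendritic cells, since it also excludes more cells. The median log2 ratio of all tested genes went from 0.15 to 0.30 against Kupffer cells and from -0.22 to 0.01 against sinusoidal endothelial cells with the reduced denominator. With TMM scaling it went from -0.10 to 0.02 against NK or ILC1 cells and to -0.00091 against sinusoidal endothelial cells. No paired analysis was possible between treatments because each has 1 library. Class ratios were taken within each library as well as pooled, with no test.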
